A study of Homo sapiens with 6 samples.

Results

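Several ribosomal protein genes have a second, expressed coding copy elsewhere in the human genome, and 6 such paralogs are described here: RPL22L1, RPL36AL, RPS27L, RPL26L1, RPL7L1 and RPL39L. They were taken as the count-file entries with the Ensembl IDs ENSG00000163584.17, ENSG00000165502.6, ENSG00000185088.13, ENSG00000037241.7, ENSG00000146223.14 and ENSG00000163923.9, which are 6 of 60554 listed genes. Of the 6, 5 had counts and passed the filter on low counts, and RPL39L had no count in any library. The libraries came from HCT116, a human colorectal carcinoma cell line, and from a single sucrose gradient fraction, the one holding 40S small ribosomal subunits that are free of assembled ribosomes. There were 2 libraries of RNA recovered with an antibody to LARP1 (LARP1 IP), 2 of RNA recovered with rabbit IgG from normal serum (IgG IP, the background of the method) and 2 of the fraction's RNA without any immunoprecipitation (Input). The labels give no treatment or genetic change for any group.

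LARP1 is an RNA-binding protein that recognises the cap and the first bases of mRNAs with a 5′ terminal oligopyrimidine (TOP) motif, a C at the first transcribed base followed by an unbroken run of pyrimidines. Nearly all mRNAs of the core ribosomal proteins are of this class, and their translation is held back together when the growth-sensing kinase mTOR is inhibited. LARP1 is also known to bind small ribosomal subunits and to protect TOP mRNAs from decay. The paralogs encode relatives of the proteins of their parent genes, but a paralog can have a promoter unlike that of its parent. Protein kinship and TOP start can therefore part. The question asked of the 6 genes is therefore whether recovery with LARP1 went with being a ribosomal protein relative or with the start of the transcript.

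The sequences around the annotated transcript starts are shown first, because the start is where a TOP motif would lie. They are RefSeq promoter sequences on build GRCh38.p14, each 30 bases long on the strand of the transcript, with the 10 bases before the annotated start and the first 20 bases from it on. Capitals mark the unbroken stretch of pyrimidines that holds the annotated start, where it has at least 5 bases. RPL22L1 (chr3:170870176-170870205, minus strand) and RPL36AL (chr14:49620607-49620636, minus strand) had such a stretch. RPS27L (chr15:63157458-63157487, minus strand), RPL7L1 (chr6:42879606-42879635, plus strand) and both starts listed for RPL26L1 (chr5:172958719-172958748 and chr5:172958870-172958899, plus strand) had none. Both RPL26L1 starts lie inside the span of that gene in the RefSeq gene table (chr5:172954094-172969771).
RPL22L1: ccgtagCTTCCTCTCTgctctcgcggccga
RPL36AL: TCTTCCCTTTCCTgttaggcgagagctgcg
RPS27L: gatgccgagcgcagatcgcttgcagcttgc
RPL7L1: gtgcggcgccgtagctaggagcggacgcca
RPL26L1, start a: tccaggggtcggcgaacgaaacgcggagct
RPL26L1, start b: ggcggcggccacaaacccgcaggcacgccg

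The parent genes are shown for comparison, in the same window. All 5 parents shown had a C at the annotated start inside a pyrimidine stretch. They were RPL22 (chr1:6199576-6199605, minus strand), RPL36A (chrX:101391001-101391030, plus strand), RPS27 (chr1:153990752-153990781, plus strand), RPL26 (chr17:8383174-8383203, minus strand) and RPL39 (chrX:119791611-119791640, minus strand).
RPL22: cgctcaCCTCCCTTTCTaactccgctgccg
RPL36A: ctcgcggTTTCTTTCTTTCCgcgccgatag
RPS27: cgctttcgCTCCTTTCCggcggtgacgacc
RPL26: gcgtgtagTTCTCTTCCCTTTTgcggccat
RPL39: ccgccagCTTCCCTCCTCTTCCTTTCTCCg

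The strict definition is a C at the annotated start followed by at least 4 bases that are each C or T. Only the transcript strand was read. By this definition, 1 of the 5 paralogs with an entry (RPL22L1) and 5 of the 5 parents shown had the motif. The motif was present at 4.07% of 35116 annotated starts of all genes and at 60% of 80 starts of ribosomal protein genes. Counted by gene, as the paralogs are, 5.14% of 27305 genes and 48 of 65 ribosomal protein genes had it at 1 start or more. RPL22L1 had 5 pyrimidines after the first C. RPL36AL also had a C as its first base, but with 2 pyrimidines after it before a G. Its stretch of 15 pyrimidines lay mostly upstream, from position -12 to position 3 counted from the annotated start as 1. If the first C may lie up to 5 bases from the annotated start, RPL22L1 and RPL36AL both had the motif. So did 19.7% of all annotated starts and, counted by gene, 23.6% of all genes. A stretch of 5 or more pyrimidines that holds the annotated start, a measure chosen after the sequences were seen, was present in the same 2 paralogs. It was also present in all 5 parents shown, at 9.6% of all starts and, counted by gene, in 11.9% of all genes. Annotated starts need not be the starts used in HCT116, and the libraries do not show which were. RPL39L had no entry. RPL7, the parent of RPL7L1, was left out when the sequences were read, so its start is not described here.

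With TMM, the main scaling, RPL22L1 was recovered with LARP1 at about 8 times its IgG level. Its protein is the paralog of RPL22, a large subunit protein, and is known to be able to take its place in the ribosome. It had 1526 and 1113 reads in the LARP1 IP, against IgG IP counts of 212 and 262 and Input counts of 180 and 148. With TMM scaling to library size, which gives normalised CPM, it stood at 160 and 207 CPM in the LARP1 IP, against IgG IP levels of 19.6 and 26.0 CPM and Input levels of 60.4 and 45.9 CPM. Both LARP1 IP libraries lay above all 4 control libraries, as for 20.6% of all tested genes. The replicates of each group lay within 1.33-fold of each other.

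The log2 fold change of RPL22L1 was 3.01 ± 0.42 (SE) over the IgG IP (edgeR adjusted p = 0.00058) and 1.79 ± 0.40 over Input (edgeR adjusted p = 0.0181). Background for these calls is 8.54% of 10788 tested genes higher than the IgG IP, 4.63% higher than Input and 4.37% higher than both. Of all tested genes, 97.3% had a lower fold change than RPL22L1 over the IgG IP and 93.7% over Input. Both IgG IP libraries lay below both Input libraries, as for 19.3% of tested genes. The log2 fold change of -1.22 ± 0.40 did not pass (edgeR adjusted p = 0.674), and by edgeR 0 of 10788 tested genes passed in that comparison. The fold over Input was therefore the smaller of the 2. With the total count less the 2 most abundant genes as library size, the log2 fold change over the IgG IP was 1.79 (edgeR adjusted p = 0.0107). The call over Input was lost where the library size was the total count less the 2 most abundant genes (log2 fold change 0.78, edgeR adjusted p = 0.157) and, by edgeR but not DESeq2, without LARP1 IP replicate 2 (1.61, adjusted p = 0.0864 by edgeR and 0.018 by DESeq2). Leaving out an Input library leaves 1, with the spread taken from the other groups. By edgeR the call over Input was then lost in both fits. The log2 fold change was 2.01 without Input replicate 1 and 1.61 without Input replicate 2. By DESeq2 the call was lost only without Input replicate 2, at 1.54, against 1.97 without Input replicate 1.

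RPL36AL was the second paralog above both controls. It encodes a close relative of the large subunit protein RPL36A, and its parent lies on the X chromosome. RefSeq names 52 pseudogenes after RPL36A. Whether reads of the parent or of these copies were counted for RPL36AL was not tested. RPL36AL had 686 and 640 reads in the LARP1 IP, against IgG IP counts of 125 and 154 and Input counts of 55 and 72. On the CPM scale it stood at 72.0 and 119 in the LARP1 IP, against IgG IP levels of 11.5 and 15.3 and Input levels of 18.5 and 22.3. Both LARP1 IP libraries again lay above all 4 controls, as for 20.6% of all tested genes, although they differed from each other by 1.65-fold.

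The log2 fold change of RPL36AL was 2.83 ± 0.43 (SE) over the IgG IP (edgeR adjusted p = 0.00104) and 2.22 ± 0.43 over Input (edgeR adjusted p = 0.00768). Fold changes were lower for 96.9% of tested genes over the IgG IP and for 95.7% over Input. In the IgG IP over Input it was -0.61 ± 0.42 (edgeR adjusted p = 0.83). The call over Input was lost with the total count less the 2 most abundant genes (1.17, edgeR adjusted p = 0.0714). That scaling gave 1.58 over the IgG IP (edgeR adjusted p = 0.0166). By edgeR the call over Input was also lost in both fits that left out an Input library. By DESeq2 it held in both, with log2 fold changes of 2.07 without Input replicate 1 and 2.30 without Input replicate 2.

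**Figure D1:**
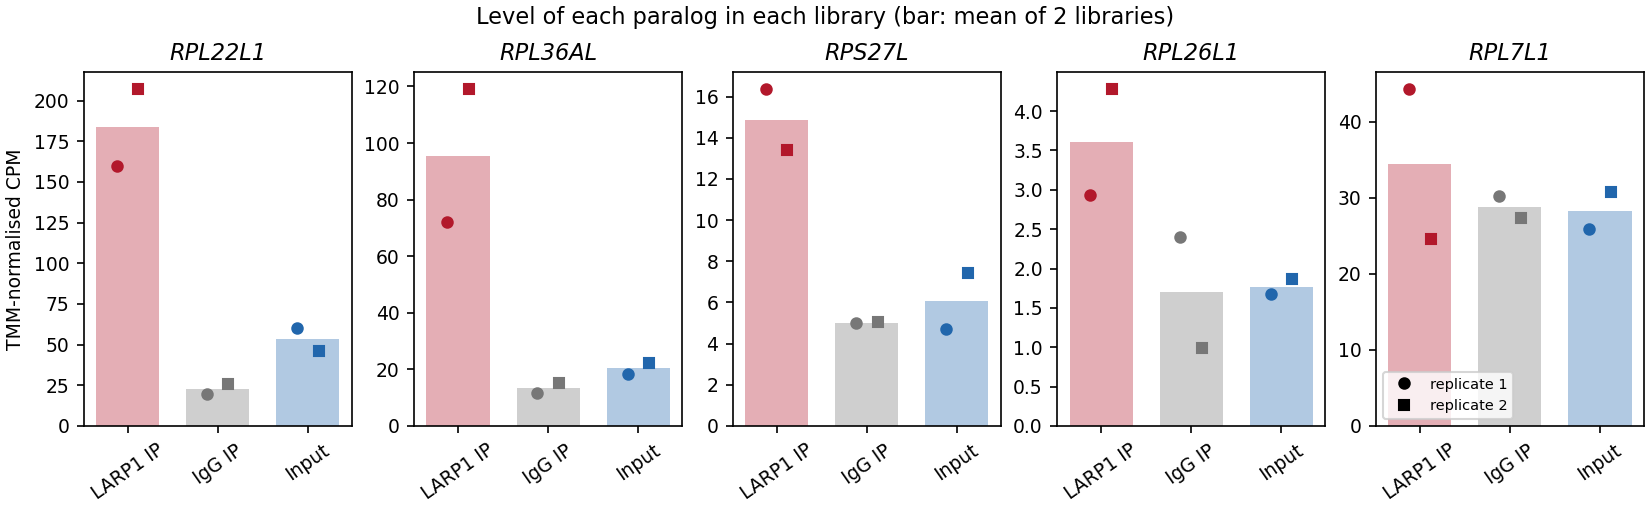
TMM-normalised CPM (vertical axes, linear, a scale per gene) of 5 paralogs in the LARP1 IP, the IgG IP and Input. Points are single libraries (circles replicate 1, squares replicate 2) and bars are means of 2. RPL22L1 at 160 and 207 CPM and RPL36AL at 72.0 and 119 CPM in the LARP1 IP stand far above their controls, RPS27L less so, and for RPL7L1 the groups overlap.

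RPS27L was higher than the IgG IP but not, by the test, higher than Input. It is the paralog of RPS27, the only small subunit protein among the parents, and is known as a target of the tumour suppressor p53. It had 156 and 72 reads in the LARP1 IP, against IgG IP counts of 54 and 51 and Input counts of 14 and 24. These are 16.4 and 13.4 CPM in the LARP1 IP, against 4.99 and 5.06 CPM for the IgG IP and 4.70 and 7.45 CPM for Input. The LARP1 IP libraries lay above all 4 controls, as they did for 20.6% of all tested genes. The log2 fold change was 1.57 ± 0.42 (SE) over the IgG IP (edgeR adjusted p = 0.0289) and 1.29 ± 0.44 over Input (edgeR adjusted p = 0.11). The call over the IgG IP sat close to the threshold and held under 7 of 20 alternatives, while 2 of 20 gave one over Input. It was lost in the fit of 4 libraries (1.57, edgeR adjusted p = 0.0509), with the total count less the 2 most abundant genes (0.40, 0.478) and, leaving out each library in turn, in 5 of 6 fits by edgeR (log2 fold changes 1.41 to 1.71, adjusted p from 0.037 to 0.14) and 6 of 6 by DESeq2 (1.39 to 1.73, 0.0579 to 0.226). The annotated start of RPS27L begins with G and held no pyrimidine stretch.

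RPL7L1 showed no difference that passed in any comparison. It is related to RPL7 and to the budding yeast factor Rlp7, which acts in assembly of the large subunit. It had 422 and 132 reads in the LARP1 IP, against IgG IP counts of 327 and 275 and Input counts of 77 and 99, and the SE of its fold change was close to that of RPL22L1. The levels were 44.3 and 24.6 CPM in the LARP1 IP, against 30.2 and 27.3 CPM for the IgG IP and 25.8 and 30.7 CPM for Input. One LARP1 IP library was the highest of all 6 and the other the lowest, and they differed by 1.8-fold. The log2 fold change was 0.26 ± 0.41 (SE) over the IgG IP (edgeR adjusted p = 0.739) and 0.29 ± 0.41 over Input (edgeR adjusted p = 0.748). It turned to -0.23 and -0.20 without LARP1 IP replicate 1. The RefSeq gene table names 22 pseudogenes after RPL7L1 and none after the other 5 paralogs. After the parents it names 61 (RPL7), 52 (RPL36A), 40 (RPL39), 36 (RPL26), 30 (RPS27) and 22 (RPL22). How reads that fit several copies were counted is not given in the sources used here. The part of such reads in the counts of any paralog was not tested.

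RPL26L1, the paralog of the large subunit protein RPL26, was too thinly counted to settle. It had 28 and 23 reads in the LARP1 IP, against IgG IP counts of 26 and 10 and Input counts of 5 and 6. Counting error alone gives the Input replicates exact 95% Poisson intervals of 1.62 to 11.7 and 2.20 to 13.1 reads. The levels were 2.94 and 4.28 CPM in the LARP1 IP, against 2.40 and 0.992 CPM for the IgG IP and 1.68 and 1.86 CPM for Input. The LARP1 IP libraries were higher than all 4 controls, as for 20.6% of all tested genes. The log2 fold change was 1.06 ± 0.58 (SE) over the IgG IP (edgeR adjusted p = 0.281) and 1.0 ± 0.66 over Input (edgeR adjusted p = 0.419). The value over the IgG IP was 1.83 without IgG IP replicate 1 and 0.57 without IgG IP replicate 2, and neither passed. It entered the test through its LARP1 IP counts: in a fit of the IgG IP and Input libraries alone it did not pass the filter. Its locus overlaps an antisense gene, RPL26L1-AS1, and the strand setting of the counting is not given. Whether reads of the antisense gene were counted for RPL26L1 is therefore not known.

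RPL39L, the paralog of RPL39 that is known for its role in sperm formation in mice, was listed at 0 in all 6 libraries. A count of 0 allows up to 3 reads, or 0.576 and 0.725 CPM of the unscaled totals for the LARP1 IP, 0.408 and 0.372 CPM for the IgG IP and 0.452 and 0.467 CPM for Input. Its locus on chromosome 3 overlaps a pseudogene of the parent, RPL39P19. Whether reads that fall on both were left out was not tested. No fold change can be given.

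Ordered by fold over the IgG IP, the paralogs ran RPL22L1, RPL36AL, RPS27L, RPL26L1 and RPL7L1. The gap of 0.18 between RPL22L1 and RPL36AL was smaller than their combined SE of 0.60, and those between RPS27L and RPL26L1 (0.51) and between RPL26L1 and RPL7L1 (0.79) were at most 1.12 times theirs. The gap of 1.26 between RPL36AL and RPS27L was the widest, at 2.1 combined SEs. Over Input the order of the first pair was the other way round, and no neighbouring gap exceeded its combined SE. The combined SE treats the genes as independent, which they are not, since they share libraries.

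**Figure D2:**
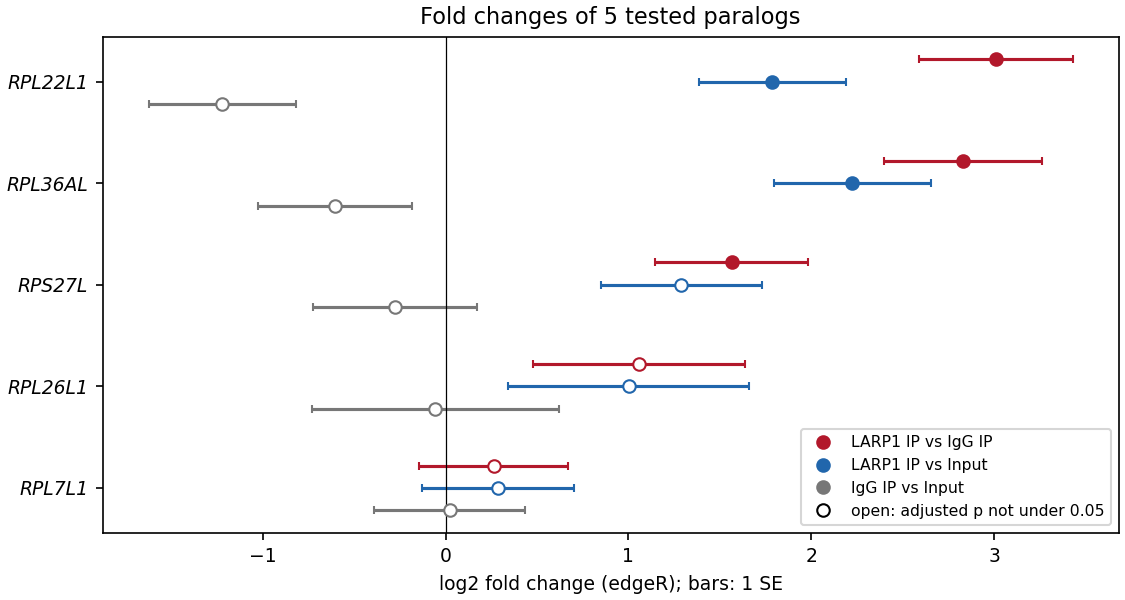
Log2 fold changes (horizontal axis) of 5 paralogs in 3 comparisons, with bars of 1 SE. Filled points passed an adjusted p of 0.05 and open points did not. RPL22L1 and RPL36AL are filled against both the IgG IP and Input, RPS27L against the IgG IP alone, and all IgG IP over Input points are open.

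As a group, 3 of 5 tested paralogs were higher in the LARP1 IP than in the IgG IP and 2 did not pass. Against Input, 2 of 5 were higher and 3 did not pass. The background shares are 8.54% of all tested genes higher than the IgG IP and 4.63% higher than Input, and the call of RPS27L over the IgG IP is the one that most alternatives lost. By edgeR, 0 were lower in either comparison, with background shares of 2.29% lower than the IgG IP and 1.52% lower than Input. The median log2 fold change of the 5 was 1.57 over the IgG IP, against -0.06 for all 10788 tested genes, and 1.29 over Input, against 0.03. For 4 of 5 both LARP1 IP libraries lay above both IgG IP libraries, which held for 27.3% of all tested genes, and for the same 4 they lay above both Input libraries, which held for 28.8%. RPL26L1 is 1 of those 4 and entered the test through its LARP1 IP counts, so these counts and medians are descriptions. Both comparisons use the same 2 LARP1 IP libraries. In the IgG IP against Input, 0 of the 5 passed by edgeR and 0 by DESeq2, which gave no adjusted p for RPS27L and RPL26L1. Of all 10788 tested genes, edgeR called 0 higher and 0 lower there, and DESeq2 called 19 higher and 19 lower. An unadjusted p under 0.05 was seen for 1 of 5, RPL22L1 (0.00908), against 6.72% of all tested genes.

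**Figure D3:**
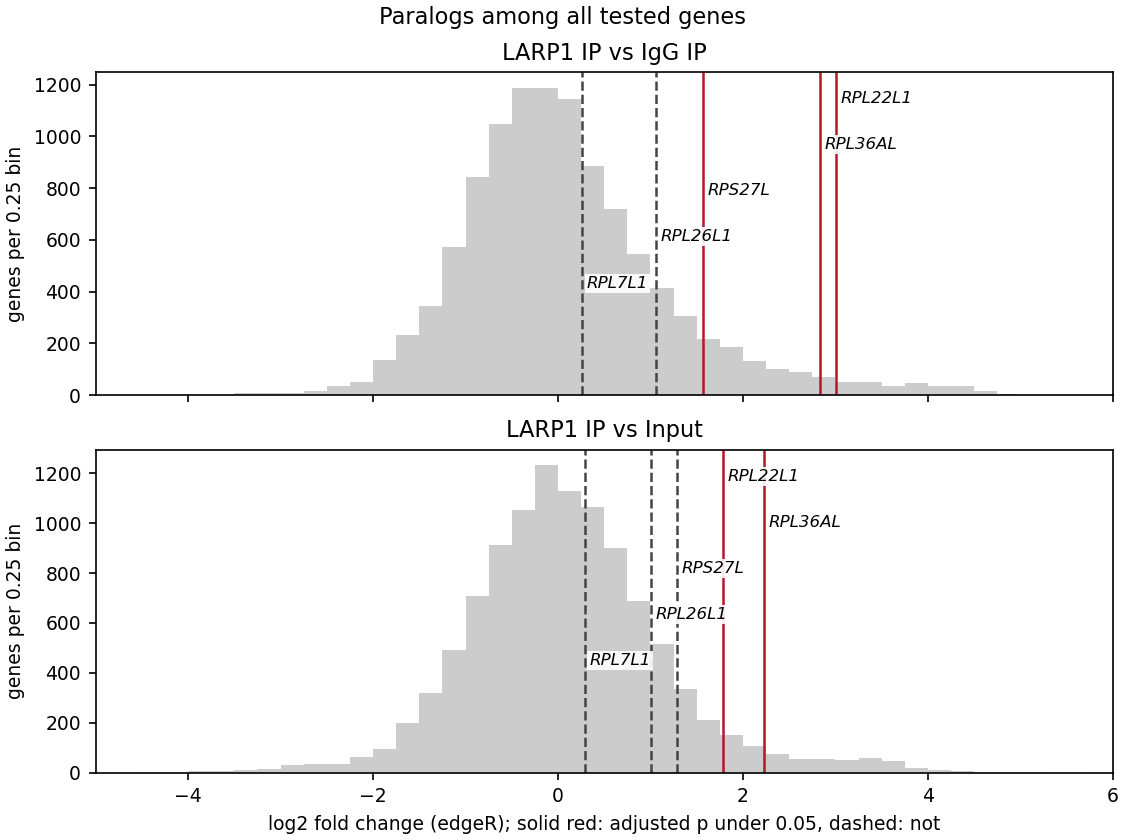
Number of genes per bin of log2 fold change (10788 genes, grey) for the LARP1 IP over the IgG IP (top) and over Input (bottom), with lines at the 5 tested paralogs (solid red where the adjusted p was under 0.05, dashed where not). RPL22L1 and RPL36AL lie in the right tail of both panels, and RPL7L1 lies near the bulk of genes.

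Ratios of reads between paralogs within a library need no scaling factor. They restate differences between the fold changes above and are no separate support for them. RPL22L1 had 3.62 and 8.43 reads per read of RPL7L1 in the LARP1 IP, against 0.648 and 0.953 for the IgG IP and 2.34 and 1.5 for Input. RPL36AL had 1.63 and 4.85 reads per read of RPL7L1 in the LARP1 IP, against 0.382 and 0.56 for the IgG IP and 0.714 and 0.727 for Input. For both, the groups did not overlap. How many of all tested genes would show the same against RPL7L1 was not computed. RPL7L1 had the lowest fold change of the tested paralogs over either control.

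RPS27L over RPL7L1 moved less, at 0.37 and 0.545 in the LARP1 IP, against 0.165 and 0.185 for the IgG IP and 0.182 and 0.242 for Input. RPL22L1 over RPL36AL was 2.22 and 1.74 in the LARP1 IP, against 1.70 and 1.70 for the IgG IP and 3.27 and 2.06 for Input. This ratio overlapped between the LARP1 IP and Input and was 1.16 times as high in the LARP1 IP as in the IgG IP. Averaged on the log2 scale, the ratio to RPL7L1 was 7.03 times as high in the LARP1 IP as in the IgG IP for RPL22L1, 6.07 times for RPL36AL and 2.57 times for RPS27L, and against Input 2.95, 3.90 and 2.14 times. A two-sided exact permutation test of 2 libraries against 2 cannot go below p = 0.33, and each of these 6 differences gave that value. RPL7L1 itself differed between the LARP1 IP libraries, and the part of that difference in the spread of these ratios was not tested.

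**Figure D4:**
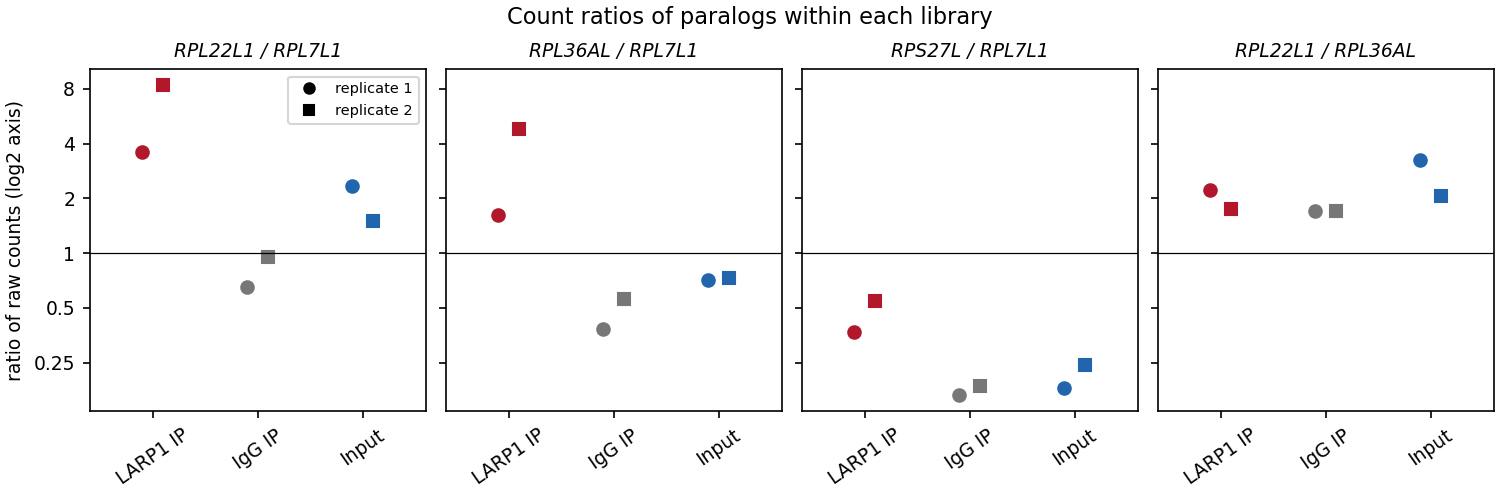
Ratio of raw read counts of 2 paralogs within each library (log2 axis) in the LARP1 IP, the IgG IP and Input; circles are replicate 1 and squares replicate 2. The ratios of RPL22L1 and RPL36AL to RPL7L1 are highest in both LARP1 IP libraries, while RPL22L1 over RPL36AL stays between 1.70 and 3.27 in all 6.

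Set beside the starts shown above, the 2 paralogs higher than both controls were RPL22L1 and RPL36AL, the same 2 whose annotated start lay inside a pyrimidine stretch, by the measure chosen after the sequences were seen. The strict motif was present in RPL22L1 alone, since RPL36AL has 2 pyrimidines after its first C. RPL7L1, with no stretch, passed in neither comparison, and RPL26L1, also with none, was too thinly counted to place. RPS27L, also with no stretch, was higher than the IgG IP by an intermediate amount. With 5 genes this is a description, and the link between start and recovery was not tested. The 5 parents shown have TOP starts in RefSeq. The parents’ counts are not used here, since no source read here pairs their symbols with Ensembl IDs.

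The profile over the 6 libraries was shared with more genes for RPL36AL and RPL22L1 than for the other 3 tested paralogs. Among 3064 other genes averaging 10 CPM or more, 341 (11.1%) had a Pearson correlation of log2 CPM of at least 0.95 with RPL36AL and 266 (8.68%) with RPL22L1. For RPS27L the number was 19 and for RPL26L1 it was 4, both of 3065 genes, and for RPL7L1 it was 1. These correlations are descriptions over 6 libraries in 3 groups, so genes that are high in both LARP1 IP libraries correlate with each other.

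Together the 6 genes took a small part of each library. Outside the 2 most abundant genes of the series, they made up 673 ± 91.2 CPM of the LARP1 IP, 337 ± 14.2 CPM of the IgG IP and 444 ± 6.04 CPM of Input (unscaled, SD over 2 libraries each). Library totals ran from 4135463 to 8069554 counts, and those 2 genes took 26.6% and 21.3% of the LARP1 IP, 70.9% and 71.5% of the IgG IP and 88.6% and 87.9% of Input. Input therefore had the fewest counts left, at most 778680, and the paralogs' Input counts were the lowest of the 3 groups. Since no spike-in standard is used here, every fold change is relative to the other RNAs of a library.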

How the data were processed

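RNA of 6 libraries was analysed, grouped by sample title into LARP1 IP, IgG IP and Input with 2 each. The labels call them biological replicates, and no source says how cultures were divided. The authors deposited raw counts, 1 file per library, not normalised. The submitters' processing notes name GRCh38, TopHat2 2.1.1, Bowtie2, CASAVA 1.8, Subread 1.20.6 and featureCounts; the annotation release, strand setting and handling of multi-mapping reads are not given in the sources read here. Per the labels' protocols, libraries were stranded without poly(A) selection.

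The 6 paralogs were found by Ensembl ID; they and all lists were chosen with earlier results of these data known. Counts were fitted with edgeR 4.0.16 in R 4.3.3 (filterByExpr with a minimum count of 10, TMM, quasi-likelihood test, group as the only term, all 6 libraries, 3 residual degrees of freedom). P-values were adjusted by Benjamini-Hochberg over 10788 genes, with a threshold of 0.05. The SE is the size of the log2 fold change divided by the square root of F. The fit was tested on simulated data. Intervals and floors cover counting error only. Also run were other scaling, filters, DESeq2 1.42.0, fits of 4 libraries, a replicate block and leaving out each library. All 6 paralogs are named. Parents, other ribosomal protein genes and cell markers were to be named only through a table pairing symbols with IDs; none did, so the labelled cell type was not checked and protein identities were not computed. Likeness was counted on log2(CPM + 0.5).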

Additional observations from a re-analysis of the deposited data

How the results depend on the processing

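RPL22L1 and RPL36AL were higher than the IgG IP under all 20 alternatives, with log2 fold changes from 1.79 to 3.23 and from 1.58 to 3.15. Against Input the number of paralogs called higher, 2 by TMM, was 5 with total counts (6566 of 10788 genes higher) and 0 with the total count less the 2 most abundant genes (188 of 10960), and it ran from 0 to 2 by edgeR and from 1 to 2 by DESeq2 when a library was left out. The 0 is from the edgeR fits without an Input library, which called 0 of 11562 and 0 of 11621 genes either way (1872 and 1189 at an unadjusted p under 0.05); DESeq2 called 355 and 247 higher there. Over Input, total counts moved the median log2 fold change of all genes to 1.75. The total count less the 2 most abundant genes moved it to -0.99. Over the IgG IP the number of paralogs called higher was 2 to 3. In the IgG IP over Input, total counts (median of all genes 1.51) called 1 higher, RPL7L1, and turned RPL22L1 to 0.29, RPL26L1 to 1.47, RPS27L to 1.22 and RPL36AL to 0.89. The total count less the 2 most abundant genes turned RPL26L1 to -0.19 and RPL7L1 to -0.86 over the IgG IP, to -0.0069 and -0.61 over Input, and RPL26L1 to 0.19 in the IgG IP over Input. In that last comparison RPL7L1, at 0.02, turned to -0.020 with upper-quartile factors, -0.011 with DESeq2 and -0.029 with a minimum count of 50, and RPL26L1 to 0.10 with no filter. Leaving out a library gave RPL7L1 log2 fold changes of -0.23 to 0.63 by edgeR and -0.25 to 0.65 by DESeq2 over the IgG IP, and of -0.20 to 0.66 and -0.24 to 0.67 over Input. In the IgG IP over Input it gave RPL7L1 -0.11 to 0.17 by edgeR and -0.11 to 0.10 by DESeq2 (-0.10 without IgG IP replicate 1), RPL26L1 -0.82 to 0.41 and -0.88 to -0.030, and RPS27L -0.58 to 0.11 and -0.58 to 0.047. None of these passed. Apart from construction (fewer samples, another scaling), the cause was not tested. RPL26L1 and RPS27L have no value where DESeq2 gave no adjusted p, or RPL26L1 failed the filter. The start motif was found in 1 paralog, but in 0 with at least 6 or 8 pyrimidines, in 2 with C within 5 bases of the start or a stretch of at least 5 pyrimidines that holds it, and in 3 with C within 20 bases; of the 5 parents, 3 had at least 8 pyrimidines.

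Replicate numbers recur across groups without a stated batch. Deviations from the group means of libraries with equal numbers correlated at 0.281 (IgG IP and Input), 0.527 (LARP1 IP and IgG IP) and 0.131 (LARP1 IP and Input). With a replicate block in the fit, 3 paralogs were higher over the IgG IP and 3 over Input, where RPS27L passed (log2 fold change 1.30, edgeR adjusted p = 0.0286). Over all 10788 genes the block raised the higher calls to 1526 over the IgG IP, against 921 without it, and to 1083 over Input, against 499. Input had few counts outside the 2 most abundant genes, which limits the comparisons with it.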
